A study of Danio rerio with 12 samples.

Results

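The SOCS genes encode the suppressors of cytokine signalling, and CISH, the cytokine-inducible SH2 protein, belongs to the same family. A cytokine or hormone that binds its receptor activates the receptor's JAK kinases, which phosphorylate STAT transcription factors, and many STAT targets include SOCS genes themselves. The SOCS proteins then bind the active receptor or kinase through an SH2 domain and recruit a ubiquitin ligase through a C-terminal SOCS box, so that the family forms a negative feedback on the signal. In the mammalian brain SOCS3 is known for limiting leptin and interleukin-6 signalling, SOCS1 for limiting interferon signalling and SOCS2 for limiting growth hormone signalling.

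The family was taken from the deposited gene tables as every row whose zebrafish symbol, case ignored, was socs followed by a digit with or without a paralog letter, together with the cish genes. This rule used no measured value and gave 14 genes of the 32520 gene IDs in each table. Symbols are printed as the gene name table gives them, some in capitals. SOCS3 and SOCS6 each stand for a pair of IDs that share the symbol, so that these genes are printed with their ID and neither was assigned to a named paralog.

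Bulk RNA-Seq was performed on the brains of 12 male zebrafish aged 22 months, dissected with the pituitary and the olfactory bulbs attached, each brain giving 1 library of poly(A)-selected RNA. The 6 wild-type fish (gr +/+) and the 6 GR-mutant fish were siblings from crosses of heterozygotes, and the GR-mutants were homozygous for s357, a missense allele of nr3c1 that is present in every cell. Nr3c1 encodes the glucocorticoid receptor (GR), a nuclear receptor that binds cortisol and regulates transcription, and the comparison asks which transcripts differed in brains without its normal function. The genotypes were kept as separate groups of fish, so that tank and genotype cannot be told apart.

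The libraries held between 24407683 and 37548901 reads assigned to genes. The transcript of nr3c1 lay between 4107 and 4567 normalised counts in wild-type and between 4669 and 4955 in GR-mutant brains (log2 fold change 0.15, adjusted p = 0.0160 from limma). A missense allele leaves the transcript in place, and these levels are no check of the labelled genotypes. Of the 5 neuron markers all were measured in every library, with a summed level of 87981 to 105761 normalised counts in wild-type and 79065 to 89555 in GR-mutant brains. The library of GR-mutant 2 held the highest of the 6 mutant values for 7 of the 13 SOCS and CISH genes tested. It held the highest of all 12 values for 4 of them. The same was not counted over all genes tested, so that these counts are not read as particular to the family. Results for the SOCS2, SOCS3, CISH and cishb genes, and pathway list counts that changed, are given with and without this library.

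Of the 14 genes, 13 were tested, having 10 or more normalised counts in 6 or more of the 12 libraries. Normalised counts are reads per gene divided by a size factor for each library. They are not divided by transcript length, so that a difference in counts between genes of one brain is not a difference in transcript level. Throughout, a mean is given with its SD over the 6 brains of a genotype (n = 6), wild-type first. A log2 fold change is the GR-mutant level minus the wild-type level, both as log2(normalised count + 1), from limma fitted over all 20114 genes tested, with p-values adjusted by Benjamini-Hochberg over all of them and a threshold of 0.05. Of the 13 genes, 2 passed the threshold, which is 15.4% of them beside 17.5% of all genes tested. One was higher in GR-mutant brains and the other lower, where 7.59% of all genes tested were higher and 9.92% lower. Both also differed by 0.58 or more on the log2 scale, which together with the threshold held for 6.36% of all genes, and both had no overlap between the genotypes, as did 8.27% of all genes. The median log2 fold change of the 13 genes was 0.09, and that of all genes tested 0.01. The share called was thus near that of all genes, and the 2 genes called were the 2 that share the symbol SOCS3.

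**Figure D1:**
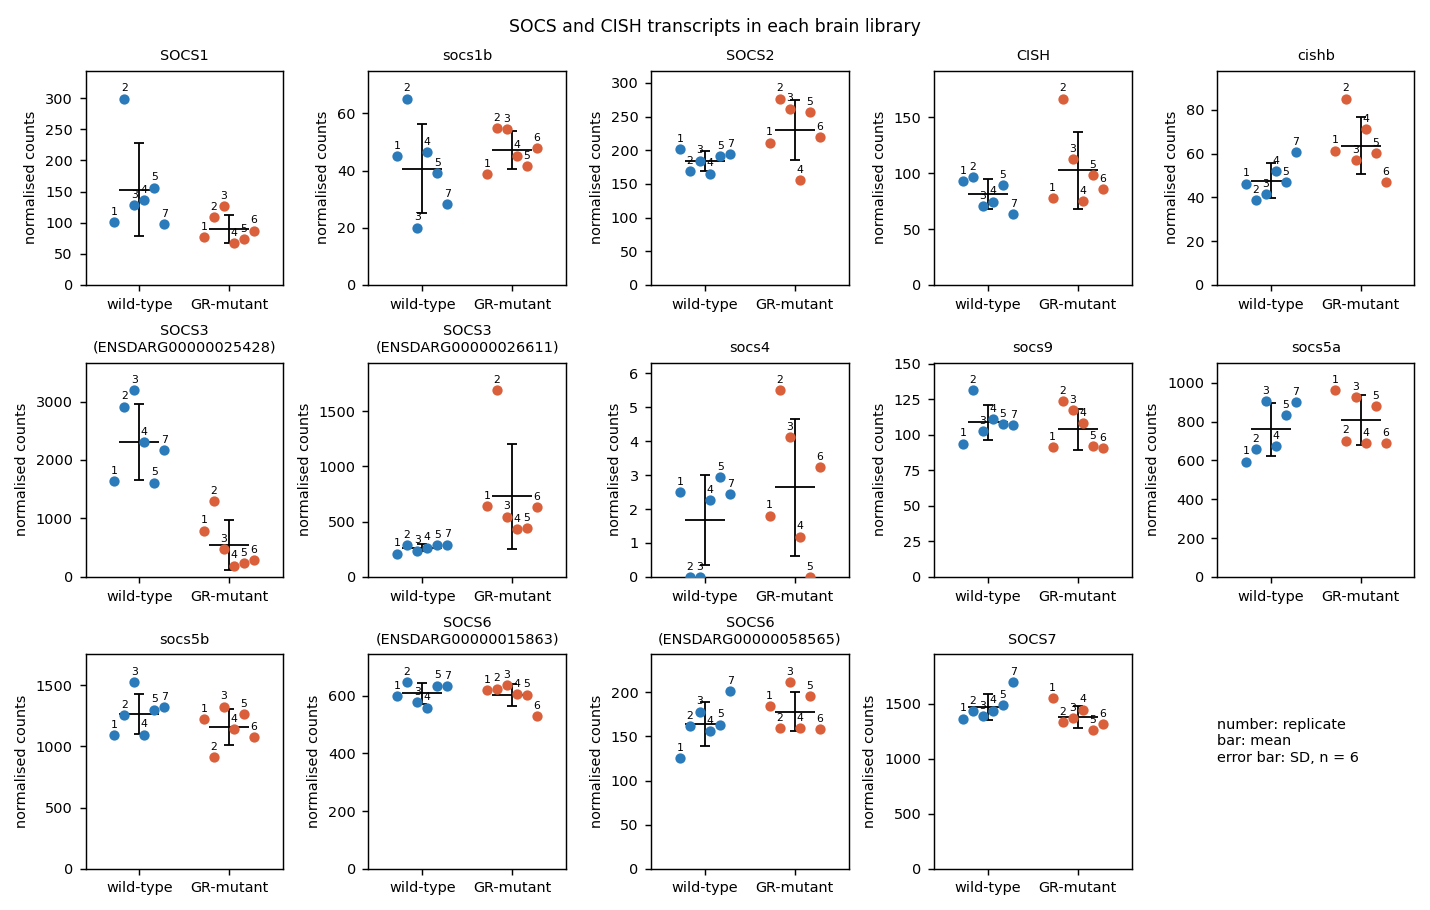
SOCS and CISH transcripts in each brain. Each panel shows 1 gene, with normalised counts on a linear vertical axis from 0, 1 point per library numbered by replicate, and the mean with its SD (n = 6) in wild-type (blue) and GR-mutant (orange) brains. The 2 SOCS3 genes are the only panels among the 13 genes tested in which the genotypes do not overlap, one lower and one higher in the GR-mutants.

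The SOCS3 gene ENSDARG00000025428 was lower in GR-mutant brains. SOCS3 inhibits JAK kinases bound to the shared interleukin-6 receptor subunit and to the leptin receptor in mammals. Its normalised counts in wild-type brains 1, 2, 3, 4, 5 and 7 were 1643, 2912, 3189, 2300, 1611 and 2165. In GR-mutant brains 1 to 6 they were 792, 1301, 476, 193, 234 and 282. Every wild-type brain was above every GR-mutant brain, and GR-mutants 1 and 2 lay closest to the wild-type range. The mean was 2303 ± 646 in wild-type and 546 ± 431 in GR-mutant brains, a 4.22-fold lower mean. The log2 fold change was -2.37 (SE 0.41, adjusted p = 0.00160 from limma), the rank of this gene by p being 599 of 20114. Without GR-mutant 2, the log2 fold change was -2.69 (adjusted p = 0.000168 from limma).

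The SOCS3 gene ENSDARG00000026611 was higher in GR-mutant brains. Its normalised counts in wild-type brains 1, 2, 3, 4, 5 and 7 were 211, 291, 237, 265, 290 and 292. In GR-mutant brains 1 to 6 they were 637, 1687, 545, 434, 440 and 634. The genotypes did not overlap, and GR-mutant 2 lay far above the other mutants. The mean was 264 ± 33.6 in wild-type and 729 ± 477 in GR-mutant brains, a 2.76-fold higher mean, with a log2 fold change of 1.29 (SE 0.27, adjusted p = 0.00550 from limma). Without GR-mutant 2 the mutant mean was 538 ± 99.2 (SD, n = 5), and the log2 fold change was 1.01 (adjusted p = 0.000287 from limma). The wild-type brains varied little, with a coefficient of variation of 12.7%, beside 65.4% in the 6 GR-mutant brains. Much of the latter came from GR-mutant 2, without which the mutant SD was 99.2 in place of 477.

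In bulk tissue, fewer cells of a type and less RNA per cell cannot be told apart. Microglia and macrophages are among the cells that use SOCS3, and the summed level of 18 of their markers was 10628 to 15378 normalised counts in wild-type and 8126 to 21051 in GR-mutant brains. The maximum was that of GR-mutant 2, and the other mutants did not exceed 11961. Most of it was apoeb, at 17066 normalised counts in that brain. Without apoeb, the sum of the other 17 markers was 3985 in GR-mutant 2, within the 3428 to 5115 of all mutant brains and the 3314 to 6912 of the wild-type brains. Of the 18 markers 1 was called higher (csf1rb) and 1 lower (LCP1), or 11.1% beside 17.5% of all genes tested. The lowest mutant values of LCP1, csf1rb, havcr1 and MPEG1 (ENSDARG00000055290) were those of GR-mutant 2. In contrast, 6 of the 18 markers, apoeb among them, had their highest mutant value there. The same was not counted over all genes tested. Without GR-mutant 2, 1 marker was called higher and 0 lower, where 16.5% of all genes were called. The part of these cells in the SOCS3 levels was not tested.

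Added together, the SOCS3 genes gave 2567 ± 649 normalised counts in wild-type and 1276 ± 887 in GR-mutant brains. The sum lay between 1854 and 3426 in wild-type brains. Of the GR-mutant brains 5 lay below that range, between 627 and 1429, and GR-mutant 2 lay inside it at 2987. The share of these counts that came from ENSDARG00000025428 depends on the lengths of both transcripts and is compared between brains only. It was 84.8% to 93.1% in wild-type brains, with a mean of 89.2%. In GR-mutant brains it was 30.7% to 55.4%, with a mean of 40.3%. In GR-mutant 2 it was 43.5%, so that the brain with the highest counts of both genes among the mutants had a share in the middle of the mutant range.

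**Figure D2:**
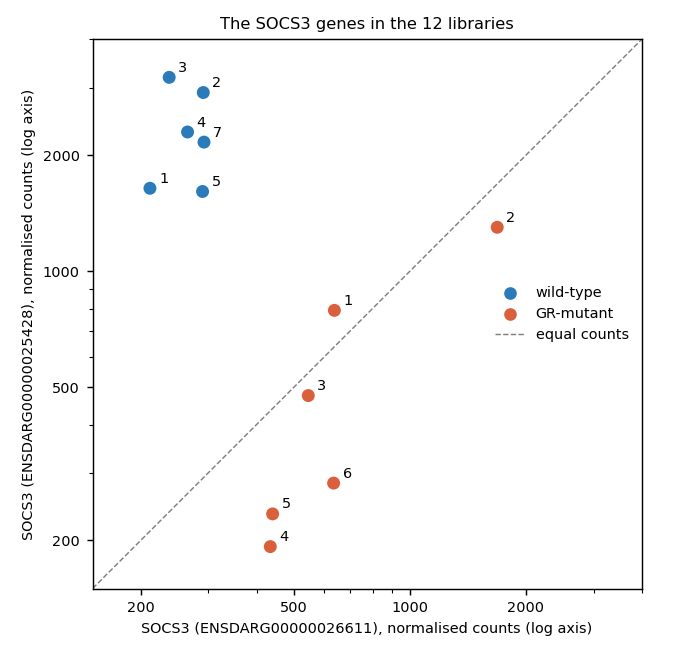
Counts of the SOCS3 genes plotted against each other. Each point is 1 brain, numbered by replicate, with normalised counts of ENSDARG00000026611 on the horizontal and of ENSDARG00000025428 on the vertical axis, both logarithmic, and a dashed line of equal counts, which are not equal transcript levels. The 6 wild-type brains (blue) lie above the line, and the 6 GR-mutant brains (orange) lie near or below it with GR-mutant 2 farthest to the right.

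Zebrafish carry many genes as paralog pairs, and the ratio of both members of a pair in the same library does not depend on the depth of that library. For each of the 5 pairs with the same number and both members tested, log2((a + 1)/(b + 1)) was computed per brain. The genotypes were compared by an exact permutation test of the brains (two-sided), with p adjusted over the 5 pairs. The smallest p that 6 brains against 6 allow is 0.00216. For SOCS3, the log2 ratio of ENSDARG00000025428 over ENSDARG00000026611 was 3.08 ± 0.43 in wild-type and -0.58 ± 0.60 in GR-mutant brains. The difference of -3.66 reached that smallest p (exact permutation p = 0.00216, adjusted p = 0.0108), and the log2 ratio was lower in 6 of 6 GR-mutant brains than in any wild-type brain. How the counting treated reads that match both paralogs was not examined here.

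SOCS1 and socs1b made up the next pair. SOCS1 inhibits JAK kinases directly and is known in mammals as a brake on interferon gamma signalling. SOCS1 lay between 98.2 and 299 normalised counts in wild-type brains (median 132) and between 66.6 and 126 in GR-mutant brains (median 82.1). The genotypes overlapped, 4 of 6 GR-mutant brains lay below every wild-type brain, and wild-type 2 was far above the other wild-type brains. The log2 fold change of -0.69 (SE 0.25) did not pass the threshold (adjusted p = 0.0779 from limma), with a 95% interval of -1.23 to -0.14. With DESeq2 on the recovered reads, which called 21.9% of all genes, it did pass, at -0.77 (adjusted p = 0.0313 from DESeq2). Without wild-type 2 it was -0.47 (adjusted p = 0.106 from limma). The paralog socs1b averaged 40.7 ± 15.7 normalised counts in wild-type brains and 47.2 ± 6.61 in GR-mutant brains, with a log2 fold change of 0.29 (adjusted p = 0.452 from limma). The log2 ratio of SOCS1 over socs1b was 1.87 ± 0.51 in wild-type and 0.89 ± 0.22 in GR-mutant brains, a difference of -0.98 (exact permutation p = 0.00433, adjusted p = 0.0108 over the 5 pairs). Both SOCS1 and SOCS3 thus had a changed ratio between their like-numbered genes, and only for SOCS3 did the single genes pass the threshold in limma.

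**Figure D3:**
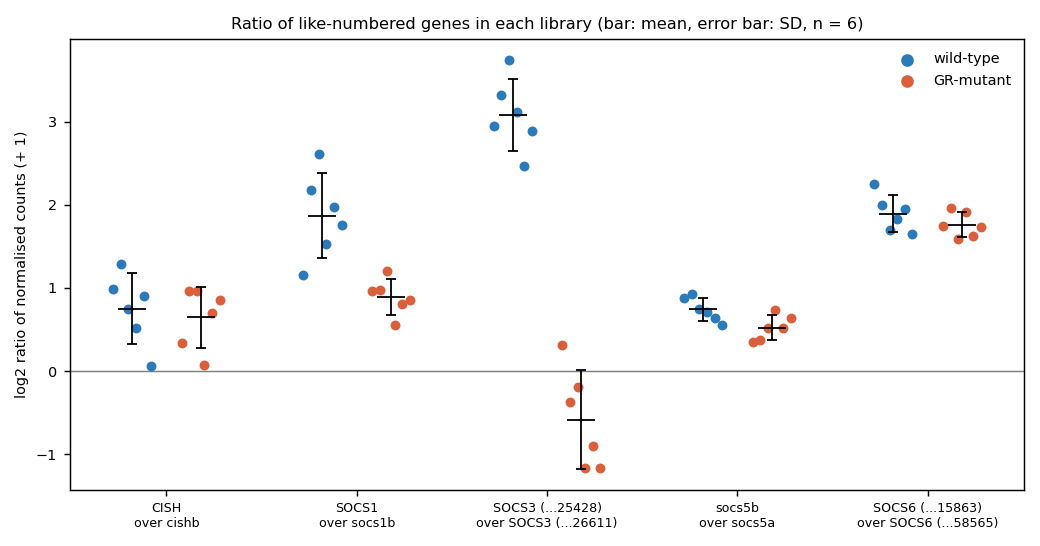
Log2 ratio of like-numbered genes in each brain. The vertical axis is log2((a + 1)/(b + 1)) of normalised counts for 5 pairs, with 1 point per brain, the mean and the SD (n = 6) for wild-type (blue) and GR-mutant (orange) brains. The ratio of the SOCS3 genes falls from a mean of 3.08 to -0.58 without overlap, that of SOCS1 over socs1b falls from 1.87 to 0.89, and the other pairs differ by 0.22 or less.

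The socs5 genes, whose mammalian counterpart acts on the epidermal growth factor receptor, overlapped between the genotypes. Socs5a averaged 761 ± 136 normalised counts in wild-type brains and 808 ± 128 in GR-mutant brains. Socs5b was at 1266 ± 161 and 1157 ± 149. Neither passed the threshold, with log2 fold changes of 0.09 (95% interval -0.18 to 0.37, adjusted p = 0.662 from limma) and -0.13 (95% interval -0.34 to 0.08, adjusted p = 0.391 from limma). Their log2 ratio, socs5b over socs5a, fell by 0.22 (exact permutation p = 0.0238, adjusted p = 0.0397 over the 5 pairs), from 0.74 ± 0.14 to 0.52 ± 0.15. This small difference was not stable, since the adjusted p reached up to 0.0902 when 1 brain was left out and was above 0.05 after leaving out any 1 of 8 of the 12 brains.

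CISH and SOCS2 are STAT5-responsive genes in mammals and act on the receptors for erythropoietin, prolactin and growth hormone. For SOCS2, normalised counts were 201, 169, 184, 165, 191 and 195 in wild-type brains 1, 2, 3, 4, 5 and 7, and 211, 277, 262, 156, 256 and 219 in GR-mutant brains 1 to 6. Of the GR-mutant brains 5 lay above every wild-type brain, and GR-mutant 4 lay below all of them. The log2 fold change was 0.30 (95% interval 0.02 to 0.58), and it did not pass the threshold (adjusted p = 0.131 from limma). Without GR-mutant 4 it was 0.41 and passed (adjusted p = 0.0181 from limma). Without GR-mutant 2, which held the highest value, it was 0.24 (adjusted p = 0.227 from limma). It did not pass when any other single library was left out, with an adjusted p of up to 0.237 from limma. The pass thus rests on the absence of 1 library.

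CISH averaged 81.0 ± 13.4 normalised counts in wild-type brains and 103 ± 34.3 in GR-mutant brains, with its maximum of 167 in GR-mutant 2. Its log2 fold change was 0.30 (95% interval -0.12 to 0.72, adjusted p = 0.312 from limma), and 0.15 without GR-mutant 2 (adjusted p = 0.556 from limma). Cishb was at 47.7 ± 7.93 and 63.7 ± 13.1 normalised counts, again with its maximum, 85.2, in GR-mutant 2. Its log2 fold change of 0.40 (95% interval 0.03 to 0.77) did not pass the threshold (adjusted p = 0.121 from limma). Without GR-mutant 2 that of cishb was 0.31 (adjusted p = 0.215 from limma). The ratio of CISH over cishb differed by -0.10 between genotypes (exact permutation p = 0.660, adjusted over the 5 pairs to the same value). SOCS1, SOCS2 and cishb were the 3 genes with an unadjusted p below 0.05 in limma that were lost on adjustment over all genes, of 5 genes with such a p (38.5% of the 13, beside 32.8% of all genes tested).

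The remaining family members have roles in receptor tyrosine kinase and insulin signalling in mammals, SOCS6 as a binder of KIT and SOCS7 as a binder of insulin receptor substrates. They gave narrow intervals around 0. SOCS6 (ENSDARG00000015863) averaged 608 ± 35.4 normalised counts in wild-type brains and 603 ± 37.8 in GR-mutant brains, a log2 fold change of -0.01 (95% interval -0.15 to 0.12, adjusted p = 0.913 from limma). SOCS6 (ENSDARG00000058565) was at 164 ± 25.2 and 178 ± 22.6, a log2 fold change of 0.12 (95% interval -0.14 to 0.39, adjusted p = 0.529 from limma). The log2 ratio of these genes differed by -0.13 (exact permutation p = 0.253, adjusted p = 0.317 over the 5 pairs). SOCS7 was at 1468 ± 119 and 1380 ± 104 normalised counts, a log2 fold change of -0.09 (95% interval -0.23 to 0.05, adjusted p = 0.362 from limma). Socs9, a gene of fish, was at 109 ± 12.4 and 104 ± 14.6, with a log2 fold change of -0.07 (95% interval -0.34 to 0.19, adjusted p = 0.726 from limma). Intervals as narrow as these exclude a change of the size seen for either SOCS3 gene, and they do not show that the levels were equal. The gene socs4 was not tested. It had 0 to 3 reads in the wild-type libraries and 0 to 6 in the GR-mutant libraries, so that no difference could be detected at this depth.

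**Figure D4:**
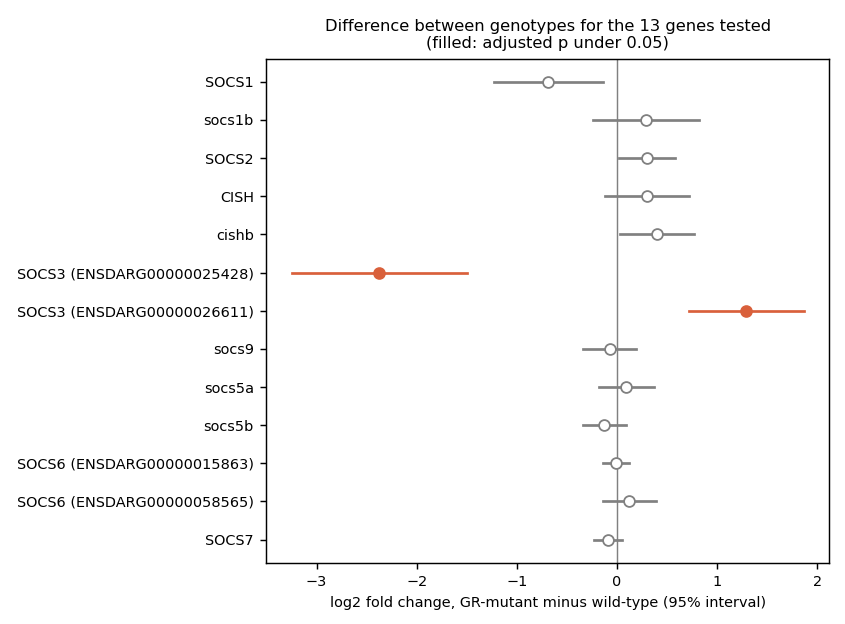
Log2 fold change of the 13 genes tested. The horizontal axis gives the GR-mutant minus the wild-type level in log2(normalised count + 1), with the 95% interval from limma, and filled points had an adjusted p under 0.05. The SOCS3 genes lie at -2.37 and 1.29, and the other 11 lie between -0.69 and 0.40.

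The libraries differed in their position across the family. Among the wild-type libraries, wild-type 2 held the highest value for 5 of the 13 genes and wild-type 1 the lowest for 6. Among the GR-mutant libraries, GR-mutant 4 held the lowest value for 6 genes and GR-mutant 6 for 4. GR-mutants 4, 5 and 6 never held the highest. These counts were not made over all genes tested and are not read as particular to the family. The coefficient of variation between brains was lowest for SOCS6 (ENSDARG00000015863), at 5.83% in wild-type and 6.26% in GR-mutant brains. It was highest in GR-mutant brains for SOCS3 (ENSDARG00000025428), at 78.8%, where the same gene varied by 28.1% in wild-type brains.

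Genes whose profile over the 12 libraries was most like that of a SOCS3 gene were found after centring log2 values within each genotype, so that the genotype difference played no part, and scaling them to unit SD. The measure is the root mean square difference from the SOCS3 profile, with a median of 1.41 over the genes tested that have a symbol. Genes without a symbol were not compared. For ENSDARG00000025428 the nearest were GAL3ST2 (0.301), SOWAHC (ENSDARG00000098790, 0.353) and CEBPB (0.433), the last a transcription factor of inflammatory and acute phase responses. For ENSDARG00000026611 the nearest were TEKT2 (0.181), MMP9 (0.339), a secreted matrix metalloproteinase, and eya2 (0.358). All 6 had their highest mutant value in GR-mutant 2, as did both SOCS3 genes. Because the 6 were picked for likeness to the SOCS3 profiles, this shared maximum follows from the choice and is no separate result. MMP9 was at 639 normalised counts in that brain and between 174 and 219 in the other mutants, and CEBPB was at 1397 in that brain and between 356 and 871 in the others. The values of eya2 were 737 and 200 to 279. TEKT2 and GAL3ST2 were low, TEKT2 near the filter of 10 normalised counts. TEKT2 was at 74.2 in GR-mutant 2 and 11.9 to 19.9 in the other mutants, GAL3ST2 at 78.8 and 19.0 to 58.7. SOWAHC lay between 117 and 247 over the 6 mutants. None of the 6 passed the threshold between genotypes in limma, and the likeness describes these 12 libraries with no test.

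The genes around the SOCS proteins were examined as 9 lists, which together held 131 genes tested. Of these 23 were called, 9 higher and 14 lower in GR-mutant brains, or 17.6% beside 17.5% of all genes tested, and their median log2 fold change was -0.05. The lists share a few genes with the markers of other cells, such as ptprc.

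The hormones and cytokines at the start of the pathway had 3 of 15 genes called, all higher in GR-mutant brains, with a list median of -0.05. Over all genes tested, 17.5% were called and 7.59% were called higher. Whether this list differed from all genes was not tested. The genes called were il15, a growth factor of lymphocytes, cntf, the ciliary neurotrophic factor, and il13, a cytokine of type 2 immunity. The il15 transcript rose, from 338 ± 28.1 normalised counts in wild-type to 413 ± 33.2 in GR-mutant brains, a log2 fold change of 0.29 (adjusted p = 0.0210 from limma). The cntf transcript rose from 78.1 ± 13.1 to 113 ± 21.8, and il13 reached at most 34.0 normalised counts in any library. Their log2 fold changes were 0.52 (adjusted p = 0.0387 from limma) and 0.98 (adjusted p = 0.0488 from limma), and without GR-mutant 2 1 of the 15 genes was called, beside 16.5% of all genes. Growth hormone, gh1, ranged from 13.6 to 231 normalised counts in wild-type and from 2.71 to 1648 in GR-mutant brains and was not called (adjusted p = 0.385 from limma). The summed level of 10 pituitary markers, gh1 among them, ranged from 6579 to 45979 normalised counts in wild-type and from 263 to 82014 in GR-mutant brains, and its part in the hormone levels was not tested.

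Of the receptors that signal through JAKs 3 of 31 were called, 1 higher and 2 lower, with a list median of 0.03. The share called was 9.68%, beside 17.5% of all genes tested. The prolactin receptor PRLR fell, from 1142 ± 87.0 normalised counts in wild-type to 884 ± 49.3 in GR-mutant brains with no overlap, a log2 fold change of -0.37 (adjusted p = 0.00129 from limma). The interferon gamma receptor subunit ifngr2 fell from 2471 ± 476 to 1498 ± 348, a log2 fold change of -0.73 (adjusted p = 0.00379 from limma). The erythropoietin receptor EPOR rose from 36.9 ± 9.78 to 65.1 ± 16.6, a log2 fold change of 0.80 (adjusted p = 0.0223 from limma). Neither il6st nor lepr was called. The interleukin-6 signal transducer il6st had a median of 2448 normalised counts in wild-type and 2499 in GR-mutant brains (a log2 fold change of 0.03, adjusted p = 0.794 from limma). The leptin receptor lepr had medians of 887 and 840 (a log2 fold change of -0.08, adjusted p = 0.360 from limma).

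Among the kinases and transcription factors of the pathway, 1 of 5 JAK kinases and 1 of 8 STAT factors were called, both lower. Over all genes tested, 17.5% were called and 9.92% were called lower. The kinase TYK2 fell, from 1464 ± 156 normalised counts in wild-type to 1056 ± 253 in GR-mutant brains, a log2 fold change of -0.50 (adjusted p = 0.0261 from limma), a call that was lost with total-count scaling of the libraries, where 0 of the 5 kinases passed. STAT4 fell from 132 ± 49.2 to 64.7 ± 29.6, a log2 fold change of -1.06 (adjusted p = 0.0408 from limma), and both overlapped between genotypes. STAT3, through which interleukin-6 and leptin induce SOCS3 in mammals, ranged from 617 to 862 normalised counts in wild-type and from 602 to 1025 in GR-mutant brains and was not called (a log2 fold change of 0.13, adjusted p = 0.540 from limma). The list medians were -0.07 for the JAK kinases and -0.24 for the STAT factors. Without GR-mutant 2, 2 of the 8 STAT factors were called, beside 16.5% of all genes.

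Other inhibitors of the pathway, such as phosphatases, PIAS and CBL proteins, had 1 of 14 genes called, or 7.14% beside 17.5% of all genes tested. The gene called was the ubiquitin ligase CBLB, which fell, from 1682 ± 373 normalised counts in wild-type to 1105 ± 110 in GR-mutant brains, a log2 fold change of -0.58 (adjusted p = 0.00781 from limma). The partners with which a SOCS box forms a ubiquitin ligase (cullin 5, elongins B and C, RNF7 and ARIH2) had 0 of 7 genes called in limma, with a median log2 fold change of -0.14. Of the 7, 4 had an unadjusted p below 0.05 in limma, as did 32.8% of all genes tested. DESeq2 called 2 of the 7 lower where it called 21.9% of all genes, and edgeR called 0 where it called 17.2%.

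Other proteins with a SOCS box had 4 of 23 genes called, 2 in each direction, or 17.4% beside 17.5% of all genes tested. Without GR-mutant 2, 3 of the 23 were called, 1 higher and 2 lower, beside 16.5% of all genes. The ankyrin repeat gene asb5b fell, from 976 ± 131 normalised counts in wild-type to 536 ± 48.8 in GR-mutant brains, a log2 fold change of -0.86 (adjusted p = 3.84e-05 from limma). SPSB3 rose from 1413 ± 100.3 to 1922 ± 54.3, a log2 fold change of 0.45 (adjusted p = 6.13e-05 from limma). RAB40B fell by 0.35 (adjusted p = 0.000329 from limma) and ASB12 (ENSDARG00000017086) rose by 0.46 (adjusted p = 0.0300 from limma) on the log2 scale.

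Receptor tyrosine kinases and insulin receptor substrates bound by SOCS proteins had 4 of 12 genes called, or 33.3% beside 17.5% of all genes tested. IRS2 (ENSDARG00000075282) fell, from 8878 ± 1034 normalised counts in wild-type to 4785 ± 214 in GR-mutant brains, a log2 fold change of -0.88 (adjusted p = 1.93e-06 from limma). IRS2 (ENSDARG00000037099) fell from 3575 ± 566 to 2310 ± 141, a log2 fold change of -0.62 (adjusted p = 0.000811 from limma). The cytokine receptor kinase flt3 fell by 0.95 on the log2 scale (adjusted p = 0.000626 from limma), and irs4a rose by 0.45 (adjusted p = 0.0170 from limma). IRS1 was not called (a log2 fold change of 0.06, adjusted p = 0.683 from limma).

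Genes known in mammals as STAT-responsive had 6 of 16 called, 4 lower and 2 higher, with a list median of -0.25. The share called was 37.5%, beside 17.5% of all genes tested. CEBPD, a transcription factor of the acute phase response, fell, from 1213 ± 229 normalised counts in wild-type to 296 ± 201 in GR-mutant brains, a log2 fold change of -2.21 (adjusted p = 0.000228 from limma). Its highest mutant value, 695, was that of GR-mutant 2, and without that library the log2 fold change was -2.50. The survival gene mcl1b fell from 1283 ± 129 to 508 ± 101, a log2 fold change of -1.35 (adjusted p = 2.91e-06 from limma). The kinase genes PIM3 and PIM1 fell by 1.05 (adjusted p = 1.85e-06 from limma) and by 0.66 (adjusted p = 0.000344 from limma) on the log2 scale. Their relative pim2 rose by 0.91 (adjusted p = 0.00102 from limma), and BCL6B, a transcriptional repressor, rose by 0.67 (adjusted p = 0.0104 from limma). Of the 16 genes, 10 had their highest mutant value in GR-mutant 2, a count that was not made over all genes tested.

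**Figure D5:**
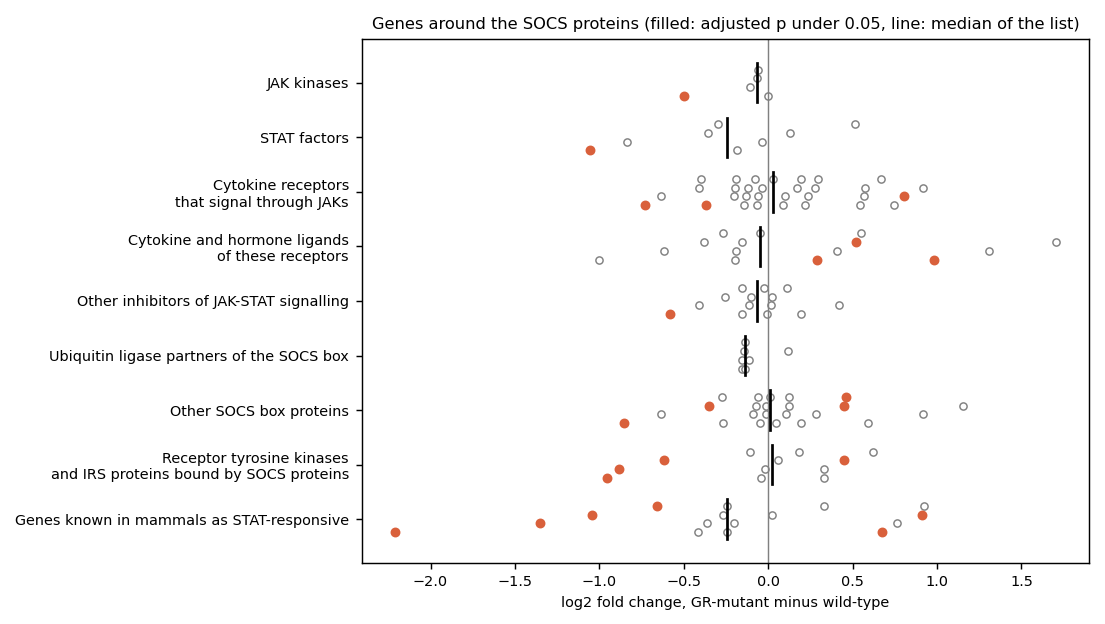
Genes around the SOCS proteins. The horizontal axis is the log2 fold change (GR-mutant against wild-type, pseudocount 1), with 1 point per gene tested in each of 9 lists, filled where the adjusted p was under 0.05, and a vertical line at the median of each list. The 23 genes called are spread over 8 of the lists, and the largest fall is that of CEBPD at -2.21.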

How the data were processed

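Per the study's methods, the authors trimmed and rRNA-filtered paired-end reads, mapped them to GRCz11 with STAR, took gene counts and scaled these by the size factors of DESeq2. Reads were trimmed with Trimmomatic, and the submitters' notes also list FastQC and MultiQC. The deposited signal is therefore normalised counts, in 1 table per brain, and the strand setting of the counting was not given in the sources used here. Within each library the values were whole multiples of 1 read, and 100% gave whole reads within a tolerance of 0.001. These recovered reads entered only the edgeR and DESeq2 fits.

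The main test was limma (version 3.58.1, R version 4.3.3) on log2(normalised count + 1), with its mean-variance trend, genotype as the only term and no block. It covered the 20114 genes that had 10 or more normalised counts in 6 or more of 12 libraries. Adding 1 understates the change of genes with low counts. Benjamini-Hochberg adjusted p-values were read at 0.05. Single ratios were compared by exact permutation tests (two-sided). Each library came from a separate fish, and p-values set the difference between genotypes against the spread between these fish. In limma that spread is moderated toward its trend over all genes tested. No pair of libraries was a duplicate, since any 2 differed in at least 24900 genes.

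The family, the 9 pathway lists and the 8 marker lists were chosen with earlier results of these data known. The text names every SOCS and CISH gene, up to 4 genes called with the smallest p of each pathway list, and for each SOCS3 gene the 3 genes of most similar profile. BCL6B, pim2, gh1, il6st, lepr, STAT3 and IRS1 were named after their values were seen, as were apoeb, csf1rb, LCP1 and havcr1. The same holds for MPEG1 (ENSDARG00000043093) and MPEG1 (ENSDARG00000055290). The microglia and macrophage sum without apoeb was also added after seeing the data. The marker lists had, of genes tested, 2 of 18 called for microglia and macrophages, 0 of 6 for other leukocytes and 0 of 10 for the pituitary. Endothelium had 1 of 9 called, which was lower, and red blood cells 0 of 4. Radial glia had 3 of 7 called (42.9%), all higher. Oligodendrocytes had 2 of 10 and neurons 2 of 5 (40.0%), each with 1 higher and 1 lower. Of all genes tested 17.5% were called, 7.59% higher and 9.92% lower. The part of these cell types in the SOCS levels was not tested.

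Alternatives comprised pseudocounts of 0.5 and 5, an unfiltered table, a filter at a mean of 100 normalised counts, scaling by the upper quartile or by the total, limma without the trend, a replicate block, count tests on recovered reads with edgeR (version 4.0.16) and DESeq2 (version 1.42.0), and leaving out each library. Lists without GR-mutant 2 were added after seeing the data. Python 3.11.15 with pandas 2.3.3, numpy 2.4.6 and matplotlib 3.10.9 made the summaries and plots. Sequences were not used here, and the methylation and behaviour experiments were not analysed.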

Additional observations from a re-analysis of the deposited data

Results flagged for a closer look

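In 4 of the 26 groups of 6 brains (13 genes in each genotype), 1 brain lay far from the others, its gap to the nearest brain divided by the range of the group being above Dixon's critical value of 0.625. Chance gives about 1 such group in 20 for independent, normally distributed values. The 26 groups are counts from the same 12 libraries, and such groups were not counted over all genes tested. The 4 groups are therefore not read as particular to the family. SOCS1 was at 299 normalised counts in wild-type 2, above the 98.2 to 157 of the other wild-type brains. SOCS3 (ENSDARG00000026611) was at 1687 in GR-mutant 2, above the 434 to 637 of the other GR-mutant brains. SOCS6 (ENSDARG00000015863) was at 530 in GR-mutant 6, below the 605 to 637 of the others. SOCS7 was at 1695 in wild-type 7, above the 1366 to 1487 of the others.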

How the results depend on the processing

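Across 22 alternatives the number of SOCS and CISH genes called stayed at 2 or 3, and both SOCS3 genes kept their direction and passed the threshold in each. Leaving out 1 library gave log2 fold changes of -2.69 to -2.14 for SOCS3 (ENSDARG00000025428) and 1.01 to 1.40 for SOCS3 (ENSDARG00000026611). The third gene was SOCS1 with DESeq2 or SOCS2 without GR-mutant 4, which gave 3 genes each, and the cause was not tested. These fits called 21.9% and 15.6% of all genes tested.

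Values near 0 changed sign. SOCS6 (ENSDARG00000015863) went to 0.036 with the replicate block, 0.070 with total-count scaling and 0.0086 with upper-quartile scaling, and ranged from -0.036 to 0.024 when 1 library was left out. Socs9 went to 0.0094 with total-count scaling. The CISH over cishb difference ranged from -0.24 to 0.013 when 1 library was left out, and that of socs5b over socs5a from -0.26 to -0.18, losing its call without 8 of the 12 libraries. The cause was not tested.

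The sample titles give numbers and state no pairing of the brains by them. Deviations of same-numbered brains from their group means correlated at -0.01, 0.05, 0.04, 0.08 and -0.15 for numbers 1 to 5. For brains with different numbers the correlations lay between -0.17 and 0.25. Correlations of 5 pairs cannot decide whether the numbers carry a pairing. With the replicate block, 2340 genes were called in place of 3523. With 5 pairs the smallest exact permutation p of a ratio is 0.0625, so that no pair could pass: the differences were -3.59 for SOCS3, -0.99 for SOCS1 over socs1b and -0.28 for socs5b over socs5a.

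The lists changed in count. The block gave 0 JAK kinases, 2 STAT factors, 0 ligands and 0 other inhibitors called. Total-count scaling gave 0 JAK kinases and 2 other inhibitors. DESeq2 gave 6 of 31 receptors, 5 of 15 ligands and 2 of 7 ubiquitin ligase partners. Leaving out GR-mutant 2 gave 2 STAT factors, 1 ligand and 3 of 23 other SOCS box proteins. Of all genes tested, the block called 11.6%, total-count scaling 21.6%, DESeq2 21.9% and the fit without GR-mutant 2 16.5%, beside 17.5% in the main test. The cause was not tested. Among all genes called, 43.3% were higher in GR-mutants, 50.9% with upper-quartile and 69.7% with total-count scaling, which moved the median log2 fold change from 0.01 to 0.09.

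Depth limits socs4. How the counting treated reads that match both paralogs of a pair was not examined, and whole-brain RNA does not resolve cell types.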
